A study of Mus musculus with 8 samples.

Results

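The proteasome subunit genes of mouse liver were examined in tumours and in the non-tumour liver of the same animals. The group held 42 of the 34745 genes in the deposited table. Members were taken by symbol, as every gene named Psma, Psmb, Psmc, Psmd or Psme with a number, without the immunoproteasome genes Psmb8, Psmb9 and Psmb10 and without pseudogenes. They comprised 8 alpha and 8 beta genes of the 20S core, 6 ATPase and 11 non-ATPase genes of the 19S cap, 3 assembly chaperones (Psmd5, Psmd9, Psmd10) and 4 activators (Psme1 to Psme4). The symbol rule also took in Psme2b, and Psmc3ip, which encodes a meiotic recombination factor and is not a proteasome subunit.

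The study asked, by its title and design text, how APOBEC3B bears on liver cancer in mice. Age-matched male mice received diethylnitrosamine (DEN), a liver carcinogen, and 8 months later tumour and relatively normal liver were taken for RNA sequencing. All 4 mice carried DEN exposure and a pT3 plasmid: vector mice 1 and 9 had the empty plasmid, and mA3 mice 1 and 2 had the plasmid labelled mA3. By these numbers each mouse gave 1 tumour and 1 adjacent library, which makes 4 groups of 2 libraries. No source used here gives the strain, the promoter of the plasmid or the number of nodules per tumour sample, and no liver without DEN was compared.

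The 26S proteasome is the protease that removes ubiquitin-tagged proteins. Its 20S core is a barrel of alpha rings, which gate the entry, and beta rings, which carry the proteolytic sites. The 19S cap binds ubiquitin chains, removes them and unfolds the substrate with a ring of ATPases. In mammalian cells the transcription factor Nfe2l1 raises the subunit genes together when proteasome activity is blocked.

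Total counts per library ran from 12969929 to 22882531. Levels within a gene are given in CPM (read counts scaled to library size with TMM factors) and differences in log2 units from edgeR's quasi-likelihood test, which ran over 15009 genes with 40 of the 42 members among them. To pass, a gene needed a Benjamini-Hochberg adjusted p under 0.05, with all tested genes in the adjustment. The libraries labelled vector tumour 1 and mA3 tumour need care. Across genes, vector tumour 1 correlated with the adjacent libraries at 0.926 to 0.959 and with the other tumours at 0.869 to 0.912, while those 3 tumours correlated among themselves at 0.945 to 0.973. Apobec3, the mouse gene that mA3 may stand for, was at 45.0 and 35.1 CPM in mA3 adjacent 1 and 2 and at 2.71 and 9.96 CPM in vector adjacent 1 and 9. In the libraries labelled mA3 tumour it was at 10.6 and 15.3 CPM, against 7.85 and 15.2 CPM in vector tumour 1 and 9, so it did not separate those groups and directions drawn from them rest on their labels. The labels tell mice apart only by number, and p-values measure the spread between these libraries.

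Per gene length, core genes had higher median levels than cap genes in adjacent liver. FPKM values are used here, since they alone allow levels of different genes to be set side by side, and they divide by the gene length that the authors used. The 7 alpha genes other than Psma8 had a median of 38.9 FPKM in adjacent liver, from Psma3 at 19.8 ± 2.75 FPKM to Psma2 at 80.1 ± 8.12 FPKM (SD, n = 4 libraries). The 7 beta genes other than Psmb11 had a median of 39.1 FPKM, from Psmb7 at 12.9 ± 4.12 FPKM to Psmb1 at 134 ± 14.2 FPKM. The lengths the authors used differ widely, 871 bp for Psmb5 and 3107 bp for Psmb6, and part of the gap between such genes lies in that divisor. This also bears on core against cap. As an example, Psma2 (944 bp) was at 76.7 CPM and 80.1 FPKM in adjacent liver, and Psmd11 (10333 bp) at 89.8 CPM and 8.57 FPKM. The part of length in the order of the classes was not tested.

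The cap ATPases had a median of 31.4 FPKM, from Psmc2 at 16.1 to Psmc1 at 65.5. The non-ATPase cap genes had a median of 17.6 FPKM, from Psmd1 at 8.57 to Psmd8 at 41.7. The activators lay close together, at 12.7 (Psme4) to 17.1 FPKM (Psme2), and the assembly chaperones were the lowest class, at 3.76 (Psmd5) to 5.85 FPKM (Psmd10). These are means over the 4 adjacent libraries.

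Psma8, Psmb11, Psmc3ip and Psme2b were low in every library. Psma8, the alpha subunit of the testis proteasome, had 3 to 41 counts per library, and Psmb11, the thymus beta subunit, had 0 and 3 counts in vector adjacent 1 and 9, 1 and 1 in mA3 adjacent 1 and 2, 0 and 1 in vector tumour 1 and 9, and 0 and 2 in mA3 tumour 1 and 2. Psmc3ip had 12, 2, 5 and 6 counts in the same adjacent libraries and 10, 8, 10 and 9 in the same tumours, and Psme2b, a gene named for its likeness to Psme2, had 2 to 9. Psmb11 and Psme2b were the members that failed the filter on low counts. Pseudogene rows that carry these symbols with -ps took few reads: the highest count was 4, for Psmb5-ps. Pseudogenes under other names were not looked at.

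Most proteasome subunit genes had lower levels in tumours than in adjacent liver. Of the 40 tested members, 38 had a log2 difference below 0 over both plasmids, against 49.5% of all genes tested, and the median was -0.43 against 0.01 over all genes. Psma5 and Psma1, alpha subunits of the core ring, fell, and no member rose: 2 of 40 members passed as lower against 1.69% of all genes, and 0 of 40 as higher against 2.94%. At an unadjusted p under 0.05, 16 members were lower, against 10.6% of all genes, and none was higher. The libraries of tumour and adjacent liver did not overlap, with tumours lower, for 14 of 40 members, against 5.32% of all genes, and with tumours higher for none, against 6.81%. Tumour was below adjacent liver in each of the 4 mice for 20 of 40 members, against 14.8% of all genes, and above it in each for none, against 15.8%. In bulk tissue, fewer cells of a type and less RNA per cell cannot be told apart.

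**Figure D1:**
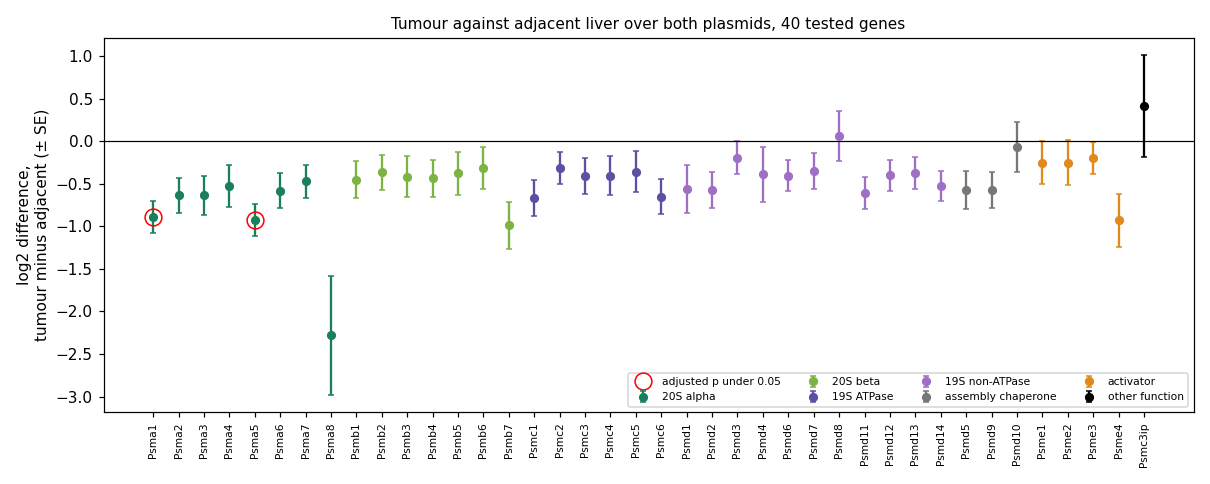
Log2 difference between tumour and adjacent liver over both plasmids (vertical axis, log2 units, tumour minus adjacent) for the 40 tested members, coloured by role; points are edgeR estimates and bars are ± 1 SE. All but Psmd8 and Psmc3ip lie below 0, and the circled Psma1 and Psma5 passed at an adjusted p under 0.05.

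Over both plasmids with all libraries, the 20S alpha genes had the lowest median of the role classes; without vector tumour 9 the 3 chaperones (-0.63) lay below them (-0.54). All 8 alpha genes were below 0, against 49.5% of all genes, with a median of -0.64. Of these, 7 had an unadjusted p under 0.05, against 10.6% of all genes lower at that p. Tumour and adjacent liver did not overlap for 6, with tumours lower, against 5.32% of all genes. Psma1 lies on chromosome 7 at 114264606 to 114276118 (minus strand; positions as deposited, GRCm38 by match to GENCODE vM21). Its level was 113 and 108 CPM in vector adjacent 1 and 9, 95.9 and 114 CPM in mA3 adjacent 1 and 2, 54.1 and 56.1 CPM in vector tumour 1 and 9, and 60.9 and 61.2 CPM in mA3 tumour 1 and 2. Every tumour library was below every adjacent library. For Psma1 this gave a log2 difference of -0.89 ± 0.19 (SE, n = 4 libraries per tissue; edgeR adjusted p = 0.0437), lower in 4 of 4 mice.

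Psma5 lies on chromosome 3 at 108256926 to 108279974 (plus strand), where 1700010K24Rik overlaps it on the other strand. Psma5 was at 68.9 and 74.0 CPM in vector adjacent 1 and 9, 58.5 and 61.4 CPM in mA3 adjacent 1 and 2, 42.0 and 33.5 CPM in vector tumour 1 and 9, and 29.6 and 33.8 CPM in mA3 tumour 1 and 2. The tissues again did not overlap. Psma5 thus differed by a log2 value of -0.92 ± 0.19 (edgeR adjusted p = 0.0385). With the mouse as a block the values were alike but neither gene passed, at an edgeR adjusted p of 0.0632 for Psma5 and 0.0711 for Psma1, against 5.86% of all genes that did.

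Both calls also rested on nearly every library. They held without vector tumour 1 (edgeR adjusted p = 0.0267 for Psma5 and 0.0468 for Psma1) and ended when any 1 of the other 7 libraries, namely vector adjacent 1 or 9, vector tumour 9, mA3 adjacent 1 or 2, or mA3 tumour 1 or 2, was left out. In those 7 fits the adjusted p was 0.0581 to 0.203 for Psma5 and 0.0590 to 0.214 for Psma1, while the log2 difference stayed between -0.97 and -0.83 for either gene. The calls over all genes, 696 with all libraries, also fell in each of those 7 fits and rose without vector tumour 1. Keeping or losing the 2 calls thus went with the calls over all genes, and each such fit leaves 1 library in a group. DESeq2 passed 8 members, all lower, against 12.9% of all genes in either direction: Psma1, Psma5, Psma8, Psmb7, Psmc1, Psmc6, Psmd11 and Psme4. Psma1 and Psma5 were the members that passed by limma-voom, against 3.05% of all genes, and by limma on log2(FPKM + 1), against 3.42%.

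The other alpha genes had values below 0 without passing. Psma2, Psma3, Psma6 and Psma7 had log2 differences of -0.64, -0.64, -0.58 and -0.47 (edgeR adjusted p = 0.122 to 0.206), each with no overlap between the tissues. Psma4 and Psma8 were the alpha genes that overlapped. Psma4 was at 150.0 CPM in vector tumour 1 and 70.6 to 83.8 CPM in the other tumours. Psma8 had a log2 difference of -2.28 ± 0.70 (edgeR adjusted p = 0.104; -2.69 without vector adjacent 9 and -1.14 without vector adjacent 1), from counts of 41, 3, 22 and 14 in vector adjacent 1 and 9 and mA3 adjacent 1 and 2, and of 3, 3, 5 and 7 in the tumours. Vector adjacent 9 sat among the tumours for that gene.

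**Figure D2:**
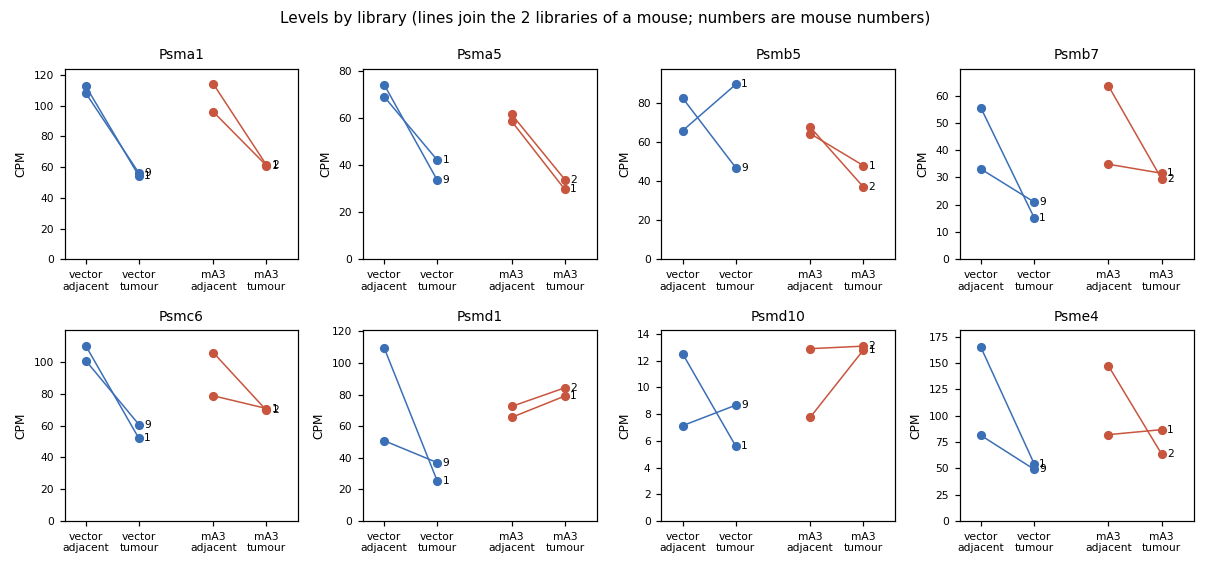
Level in CPM (vertical axis, from 0) of 8 members in each library; lines join the adjacent and tumour library of 1 mouse, blue for vector and red for mA3 mice, with the mouse number beside the tumour point. Psma1 and Psma5 are lower in the tumour of all 4 mice, Psmb5 is higher in that of vector mouse 1, and Psmd1 is lower in both vector and higher in both mA3 tumours.

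The members carry unlike promoter letters, shown here for the genes that passed and for 1 core and 1 cap gene that hold a motif match. RefSeq windows (GRCm38.p6) from 250 bases before to 50 after the gene start were found for 35 of the 42 members. No window was found for Psma8, Psmb1, Psmb2, Psmb7, Psmc3, Psmd3 and Psmd7. Of the 35 starts, 28 lay within 50 bp of the start in the deposited table. The 250 bases before the start are printed for Psma1 (chr7:114276117-114276366, minus strand), Psma5 (chr3:108256676-108256925, plus), Psmb5 (chr14:54617996-54618245, minus) and Psmc6 (chr14:45329574-45329823, plus), read along the gene's strand. Psmb5 and Psmc6 were chosen after their matches were seen. Capitals mark matches on either strand to the antioxidant response core TGACNNNGC, the CCAAT box and the Ets core CCGGAAG:
Psma1: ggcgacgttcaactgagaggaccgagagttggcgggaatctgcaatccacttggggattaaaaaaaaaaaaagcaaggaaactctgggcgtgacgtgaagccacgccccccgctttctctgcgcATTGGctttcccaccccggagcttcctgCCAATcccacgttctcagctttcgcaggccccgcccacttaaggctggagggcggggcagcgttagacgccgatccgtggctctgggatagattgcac
Psma5: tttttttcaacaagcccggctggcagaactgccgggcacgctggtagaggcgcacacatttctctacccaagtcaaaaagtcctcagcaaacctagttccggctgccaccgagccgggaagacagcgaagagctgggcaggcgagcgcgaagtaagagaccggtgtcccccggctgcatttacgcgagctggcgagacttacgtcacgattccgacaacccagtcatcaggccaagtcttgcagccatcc
Psmb5: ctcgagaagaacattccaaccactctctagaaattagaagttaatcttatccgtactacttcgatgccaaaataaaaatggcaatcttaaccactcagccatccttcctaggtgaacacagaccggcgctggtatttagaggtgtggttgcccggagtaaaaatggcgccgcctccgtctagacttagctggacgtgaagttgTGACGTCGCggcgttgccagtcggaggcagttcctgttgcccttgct
Psmc6: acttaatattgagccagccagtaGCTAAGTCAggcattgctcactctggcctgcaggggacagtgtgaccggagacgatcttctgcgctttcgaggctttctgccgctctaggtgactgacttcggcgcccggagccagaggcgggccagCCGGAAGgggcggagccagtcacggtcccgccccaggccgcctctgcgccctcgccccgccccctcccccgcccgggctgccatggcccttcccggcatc

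The Psma1 window holds a pair of CCAAT boxes, and the Psma5 window holds none of the 3 motifs. Over whole windows, CCGGAAG was in 12 of 35 members (34.3%), against 11.6% of 21262 windows of protein-coding genes and 8.86% of all 32851 windows. These 12 were not spread evenly: 9 of 14 cap windows held it and 0 of 12 core windows did. CCAAT was in 14 of 35 members, against 38.2% of coding windows, with 7 of 12 core and 4 of 14 cap windows. TGACNNNGC, which holds the letters of sites bound by Nfe2l1 and its relatives, was in 6 of 35 members (17.1%), against 13.0% of coding windows. A match is a description of letters and not a binding site.

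All 7 tested beta genes were below 0, with a median of -0.41, and none passed. Psmb7, the trypsin-like subunit, was at 55.5 and 33.1 CPM in vector adjacent 1 and 9, 34.9 and 63.6 CPM in mA3 adjacent 1 and 2, 15.3 and 21.0 CPM in vector tumour 1 and 9, and 31.5 and 29.5 CPM in mA3 tumour 1 and 2. Every tumour was below every adjacent library, narrowly for vector adjacent 9. In log2 units Psmb7 differed by -0.99 ± 0.28 (edgeR adjusted p = 0.0826). The gene overlaps Nek6 on the other strand, which ran from 41.4 to 95.2 CPM over the 8 libraries, and no source used here gives the strand setting of the counting, so reads from the shared stretch cannot be told apart. The same limit holds for Psma3, Psma4, Psma5, Psmc3, Psmc3ip, Psmd1, Psmd3, Psmd5, Psmd13 and Psme1, which also overlap a gene on the other strand.

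The other proteolytic subunits were higher, not lower, in the tumour of vector mouse 1. Psmb5, the chymotrypsin-like subunit, was at 66.0 and 82.8 CPM in vector adjacent 1 and 9, 64.5 and 67.9 CPM in mA3 adjacent 1 and 2, 89.7 and 47.1 CPM in vector tumour 1 and 9, and 48.1 and 37.2 CPM in mA3 tumour 1 and 2. Psmb6, the caspase-like subunit, was at 94.3, 109.9, 101 and 104 CPM in the same adjacent libraries and at 132, 70.9, 71.5 and 62.4 CPM in the same tumours. For both genes vector tumour 1 was the highest of the 8 libraries and the other 3 tumours were the lowest. The log2 differences were -0.38 ± 0.26 for Psmb5 (edgeR adjusted p = 0.430) and -0.31 ± 0.25 for Psmb6 (0.508), and without vector tumour 1 they were -0.65 (0.124) and -0.58 (0.147).

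Psmb1, a structural beta subunit, was at 142 and 149.7 CPM in vector adjacent 1 and 9, 119 and 152 CPM in mA3 adjacent 1 and 2, 126 and 97.4 CPM in vector tumour 1 and 9, and 94.9 and 95.2 CPM in mA3 tumour 1 and 2. Only vector tumour 1 reached into the adjacent range. Its log2 difference was -0.45 ± 0.21 (edgeR adjusted p = 0.261). Psmb2, Psmb3 and Psmb4 had log2 differences of -0.36, -0.41 and -0.44, with vector tumour 1 again the highest tumour library for each.

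All 6 cap ATPases were below 0, with a median of -0.41 and none passing. Psmc6 was at 110.1 and 101 CPM in vector adjacent 1 and 9, 78.7 and 106 CPM in mA3 adjacent 1 and 2, 51.9 and 60.6 CPM in vector tumour 1 and 9, and 70.7 and 69.5 CPM in mA3 tumour 1 and 2. The tissues did not overlap, and the mA3 tumours lay close to mA3 adjacent 1. For Psmc6 the difference came to a log2 value of -0.65 ± 0.20 (edgeR adjusted p = 0.109).

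Psmc1 was at 121 and 99.4 CPM in vector adjacent 1 and 9, 76.2 and 109.0 CPM in mA3 adjacent 1 and 2, 56.0 and 58.8 CPM in vector tumour 1 and 9, and 68.3 and 72.7 CPM in mA3 tumour 1 and 2. It too did not overlap, with a log2 difference of -0.67 ± 0.21 (edgeR adjusted p = 0.114). Psmc2, Psmc3, Psmc4 and Psmc5 had differences of -0.41 to -0.31, and among them only Psmc2 was without overlap.

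Of the 11 non-ATPase cap genes 10 were below 0, with a median of -0.40 and none passing. Psmd11, a scaffold of the lid, was at 87.3 and 100.2 CPM in vector adjacent 1 and 9, 89.0 and 82.7 CPM in mA3 adjacent 1 and 2, 53.7 and 56.2 CPM in vector tumour 1 and 9, and 66.0 and 60.4 CPM in mA3 tumour 1 and 2. Its 4 tumour libraries were all below its 4 adjacent libraries. Psmd11 had a log2 difference of -0.61 ± 0.19 (edgeR adjusted p = 0.107).

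Psmd14, the deubiquitinase of the lid, was at 48.6 and 41.1 CPM in vector adjacent 1 and 9, 51.2 and 54.6 CPM in mA3 adjacent 1 and 2, 27.5 and 27.6 CPM in vector tumour 1 and 9, and 43.6 and 39.4 CPM in mA3 tumour 1 and 2. Tumour was lower within each mouse, and mA3 tumour 1 overlapped with vector adjacent 9. On the log2 scale the difference was -0.53 ± 0.18 (edgeR adjusted p = 0.131).

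Psmd4, a ubiquitin receptor, turned on 1 library. It was at 83.2 and 208 CPM in vector adjacent 1 and 9, 114 and 76.7 CPM in mA3 adjacent 1 and 2, 136 and 99.7 CPM in vector tumour 1 and 9, and 71.1 and 66.6 CPM in mA3 tumour 1 and 2. The log2 difference of -0.39 ± 0.32 (edgeR adjusted p = 0.528) became 0.01 without vector adjacent 9. Psmd8, another lid gene, was the non-ATPase member not below 0, at 0.06 ± 0.30 (adjusted p = 0.933), and it was below 0 without vector adjacent 9 (-0.07), vector tumour 9 (-0.24) or mA3 adjacent 1 (-0.08). Psmd2, Psmd6 and Psmd12 were without overlap, at -0.57, -0.40 and -0.40, and Psmd1, Psmd3, Psmd7 and Psmd13 ran from -0.56 to -0.20.

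The activators open the core without the cap. Psme4, the nuclear activator PA200, was at 165 and 81.4 CPM in vector adjacent 1 and 9, 82.1 and 147 CPM in mA3 adjacent 1 and 2, 54.6 and 49.2 CPM in vector tumour 1 and 9, and 86.8 and 63.7 CPM in mA3 tumour 1 and 2. The adjacent libraries differed among themselves as widely as the tissues did, and mA3 tumour 1 lay above mA3 adjacent 1. The edgeR log2 difference of Psme4 was -0.93 ± 0.31 (edgeR adjusted p = 0.127).

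Psme3, the nuclear activator PA28 gamma, was at 52.9 and 40.3 CPM in vector adjacent 1 and 9, 48.7 and 54.3 CPM in mA3 adjacent 1 and 2, 35.8 and 35.1 CPM in vector tumour 1 and 9, and 52.9 and 50.5 CPM in mA3 tumour 1 and 2. The vector tumours were the lowest libraries and the mA3 tumours were level with adjacent liver. This left a log2 difference of -0.19 ± 0.19 (edgeR adjusted p = 0.587). The interferon-inducible activators Psme1 and Psme2 had -0.25 each.

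Of the assembly chaperones, Psmd5 and Psmd9 had log2 differences of -0.58 ± 0.22 and -0.57 ± 0.21 (edgeR adjusted p = 0.173 and 0.165). The Psmd9 locus overlaps Hpd, a tyrosine catabolism gene on the other strand, which ran from 102 to 2362 CPM and was lower in the tumour of each mouse, so that reads of Psmd9 are uncertain. Psmd10 (gankyrin), which is known as an oncoprotein raised in human liver cancer, was at 12.5 and 7.14 CPM in vector adjacent 1 and 9, 7.76 and 12.9 CPM in mA3 adjacent 1 and 2, 5.62 and 8.67 CPM in vector tumour 1 and 9, and 12.8 and 13.1 CPM in mA3 tumour 1 and 2. The tissues overlapped, and the tumour was lower in 1 mouse, vector mouse 1. Psmd10 had a log2 difference of -0.07 ± 0.29 (edgeR adjusted p = 0.923), and it was above 0 without vector adjacent 1 (0.16), vector tumour 1 (0.07) or mA3 adjacent 2 (0.13). Psmc3ip had 0.42 ± 0.60 (0.731), and without it 38 of 39 members were below 0, with a median of -0.44.

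Summed levels of all members, of the core and of the cap were lower in the tumour of each mouse, by unequal amounts for core and cap. By class, the beta sum was higher in the tumour of vector mouse 1 (669 against 649 CPM). The chaperone sum was higher in that of mA3 mouse 1 (65.1 against 59.4 CPM). Both sums were lower in the tumours of the other mice. All 42 members summed to 3264 ± 193 CPM in adjacent liver and 2384 ± 196 CPM in tumour (SD, n = 4 libraries per tissue), with no overlap. The 20S sum was 1387 and 1420 CPM in vector adjacent 1 and 9 and 1241 and 1441 CPM in mA3 adjacent 1 and 2, against 1235 and 871 CPM in vector tumour 1 and 9 and 873 and 839 CPM in mA3 tumour 1 and 2. Vector tumour 1 stayed near the adjacent range and the other 3 tumours were close to each other.

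The 19S sum was 1550 and 1607 CPM in vector adjacent 1 and 9 and 1377 and 1439 CPM in mA3 adjacent 1 and 2, against 1066 and 1049.6 CPM in vector tumour 1 and 9 and 1227 and 1206 CPM in mA3 tumour 1 and 2. Here it was the vector tumours that stood lowest. The ratio of the 20S to the 19S sum was 0.884 to 1.002 in adjacent liver, 1.16 in vector tumour 1, 0.830 in vector tumour 9 and 0.712 and 0.696 in mA3 tumour 1 and 2. The adjacent libraries were alike, 3 tumours lay below them and vector tumour 1 lay above. Sums are in CPM, which long genes weigh on, and were not tested.

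**Figure D3:**
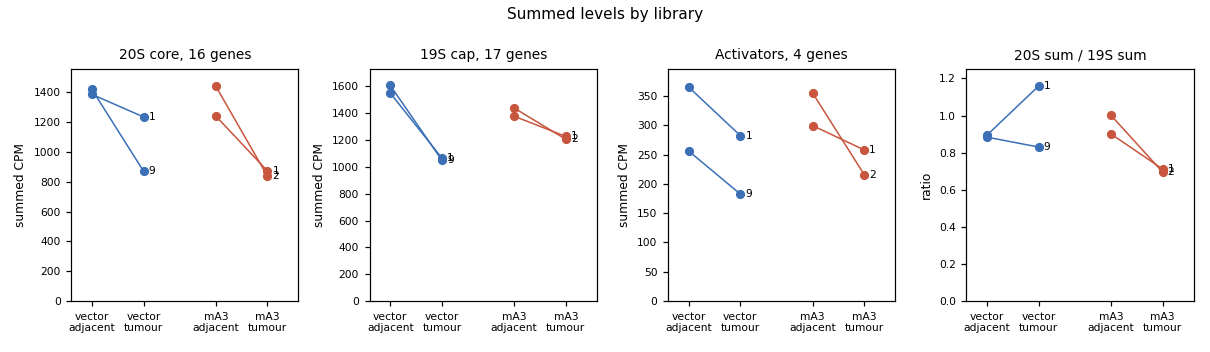
Summed CPM of the 16 core, 17 cap and 4 activator genes and the ratio of core to cap sum (vertical axes, from 0) in each library; lines join the libraries of 1 mouse, with its number beside the tumour point. The core sum of vector tumour 1 (1235 CPM) stands above those of the other tumours (839 to 873 CPM), and its ratio (1.16) is the highest of the 8 libraries.

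Within single mice the median log2 difference of the 40 members was -0.44 in vector mouse 1, -0.63 in vector mouse 9, -0.33 in mA3 mouse 1 and -0.53 in mA3 mouse 2, with 30, 37, 31 and 36 members below 0. Over all genes these medians were 0.05, -0.01, -0.00 and 0.05. In vector mouse 9 every core, ATPase and activator member tested was below 0. In vector mouse 1, Psma4, Psmb2, Psmb3, Psmb5, Psmb6, Psmc4, Psmc5, Psmd4, Psme1 and Psme2 were higher in the tumour, by 0.06 (Psmb2) to 0.71 (Psmd4), while Psmd1 was lower by -2.11 and Psmb7 by -1.85.

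The spread of the members in vector mouse 1 went with base composition. Spearman's rho between a member's within-mouse difference and the GC content of its transcripts was 0.55 in vector mouse 1, -0.12 in vector mouse 9, -0.12 in mA3 mouse 1 and 0.32 in mA3 mouse 2 (n = 40 members, which share the same 2 libraries in each mouse). Over 14963 tested genes the same values were 0.24, 0.06, 0.03 and 0.08. By library, the members' deviations from their own 8-library means went with GC content at -0.60 in vector adjacent 1 and -0.67 in mA3 adjacent 2, at 0.46 in vector tumour 1, 0.41 in vector tumour 9 and 0.34 in vector adjacent 9, and between -0.12 and 0.03 in the other 3 libraries. Over both plasmids rho was 0.52 for the members and 0.15 over all genes, and the part of base composition in the differences was not tested.

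**Figure D4:**
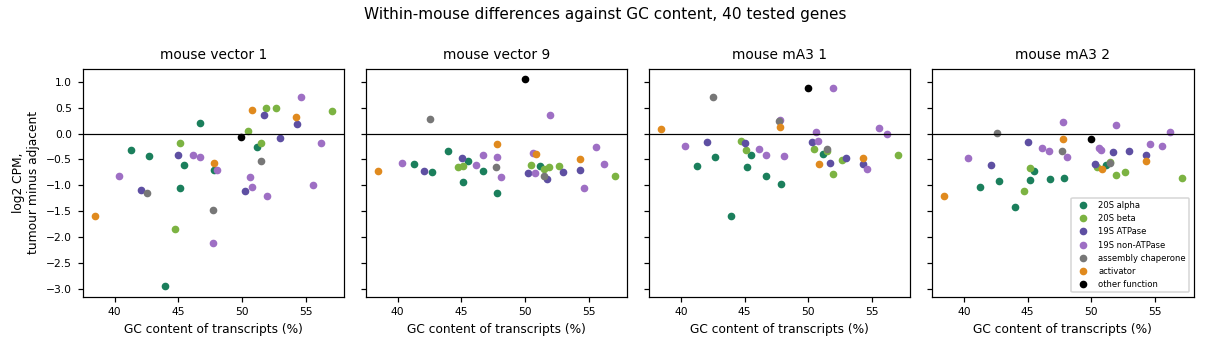
Tumour minus adjacent log2 CPM (vertical axis) against the GC content of a member's transcripts in percent (horizontal axis) in each mouse, for the 40 tested members coloured by role. The points rise with GC content in vector mouse 1 (rho 0.55) and form a flat band below 0 in vector mouse 9 (rho -0.12).

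Within vector mice alone, 38 of 40 members were below 0 in tumours, against 47.3% of all genes, with a median of -0.44. Tumours and adjacent livers did not overlap for 27 members, all lower in tumours, against 16.5% of all genes lower and 18.2% higher. By edgeR 0 members passed, as did 0% of all genes, and 12 had an unadjusted p under 0.05, all of them lower, against 4.02% of all genes lower at that p. DESeq2 passed 1, Psma1 (adjusted p = 0.0440), against 1.68% of all genes, and limma-voom 0. Without the filter on low counts edgeR passed Psmd1 (adjusted p = 0.0431) and Psmb7 (adjusted p = 0.0444), both lower. Of all genes 2.9% passed there, in either direction. The smallest p belonged to Psma1 (-1.002 ± 0.27; edgeR adjusted p = 0.487), Psma5 (-0.92 ± 0.27; 0.508) and the chaperone Psmd5 (-1.09 ± 0.31; 0.508). The medians by class were -0.57 for alpha, -0.26 for beta, -0.43 for ATPase and -0.62 for non-ATPase genes, -0.69 for the 3 chaperones and -0.21 for the activators. The beta median turned on single libraries, at -0.59 without vector tumour 1 and -0.40 without vector adjacent 1. It was -0.13 when vector adjacent 9 was left out, -0.10 when vector tumour 9 was, and 0.04 when both were.

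Within mA3 mice, 34 of 40 members were below 0 in tumours, against 50.2% of all genes, with a median of -0.46. The tissues did not overlap for 30 members lower in tumours, against 28.3% of all genes, and 2 higher, against 29.7%. By edgeR 0 members passed, against 1.19% of all genes, and 5 had an unadjusted p under 0.05, all lower, against 9.74% of all genes lower at that p. DESeq2 passed 1, Psma5 (adjusted p = 0.0362), against 10.7% of all genes, and limma-voom 0, against 0.74%. The smallest p belonged to Psma5 (-0.92 ± 0.27; edgeR adjusted p = 0.111), Psma1 (-0.78 ± 0.27; 0.160) and Psma2 (-0.84 ± 0.30; 0.169). The medians by class were -0.81 for alpha, -0.62 for beta, -0.40 for ATPase and -0.23 for non-ATPase genes. For the chaperones the median was -0.06 (1 of 3 above 0) and for the activators -0.55 (1 of 4 above 0). In both plasmid groups all alpha, beta and ATPase members were below 0, in vector mice with exceptions. There, 5 of 7 beta members were below 0 under total-count or upper-quartile scaling. Without vector tumour 9, 7 of 8 alpha, 4 of 7 beta and 5 of 6 ATPase members were below 0, without vector adjacent 9, 4 of 7 beta and 4 of 6 ATPase members, and without both, 7 of 8 alpha, 3 of 7 beta and 4 of 6 ATPase members.

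Whether the tumour difference itself depended on the plasmid was tested by the interaction. By edgeR 0 members passed, as did 0% of all genes, and 2 had an unadjusted p under 0.05, against 4.99% of all genes. DESeq2 passed 0 against 0.0849% of all genes, and limma-voom 0. The median was 0.17 with 17 of 40 below 0, against 52.2% of all genes, and with 10 of 11 non-ATPase genes above 0 and 6 of 7 beta genes below 0. Without vector tumour 1, 2 of 7 beta genes (median 0.03) and 6 of 40 members were below 0. Psmd1, a scaffold of the cap base, had the smallest p, at 1.61 ± 0.57 (edgeR adjusted p = 0.842), with 0.96 to 2.07 when 1 library was left out. It was at 109.5 and 50.8 CPM in vector adjacent 1 and 9, 65.6 and 72.5 CPM in mA3 adjacent 1 and 2, 25.2 and 36.9 CPM in vector tumour 1 and 9, and 79.1 and 84.3 CPM in mA3 tumour 1 and 2. It was the 1 member of 40 that was lower in both vector tumours and higher in both mA3 tumours than in the adjacent liver of the same mouse, a pattern held by 3.88% of all genes.

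Between the tumours of mA3 and vector mice no member passed by edgeR (0 of 40, as did 0% of all genes), and 4 had an unadjusted p under 0.05, against 14.2% of all genes. DESeq2 passed 0 against 3.66% of all genes, and limma-voom 0. Without the filter on low counts edgeR passed Psmd1, higher in mA3 tumours (adjusted p = 0.0291), against 4.66% of all genes in either direction. The members spread to both sides, 21 below 0, against 51.2% of all genes, and 19 above, with a median of -0.07. The plasmid groups did not overlap for 7 members lower in mA3 tumours, against 27.4% of all genes, and 18 higher, against 27.8%. The smallest p belonged to Psmd1 (1.39 ± 0.41; edgeR adjusted p = 0.295), Psmd5 (0.84 ± 0.31; 0.317) and Psmb3 (-0.87 ± 0.34; 0.330), which was at -0.41 without vector tumour 1 and -1.21 without vector tumour 9. Of the non-ATPase genes 9 of 11 were above 0 with a median of 0.42, and of the beta genes 6 of 7 were below 0 with a median of -0.23. Without vector tumour 1, the non-ATPase genes were still 9 of 11 above 0 (median 0.30), the beta genes were 4 of 7 below 0 (median -0.04), and the median of the 40 members was 0.10 (0.12 with Psme2b, which passed the filter on low counts in that fit).

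Between the adjacent livers of mA3 and vector mice no member passed. By edgeR the count was 0, as it was 0% of all genes, and 0 had an unadjusted p under 0.05, against 1.03% of all genes. DESeq2 and limma-voom passed 0 too. The median was -0.11 with 29 of 40 below 0, against 51.7% of all genes. The groups did not overlap for 6 members lower in mA3 mice, against 9.9%, and 2 higher, against 10.4%. The median was 0.01 under total-count scaling, which moved the median of all genes from -0.01 to 0.11. The smallest p belonged to Psmd4 (-0.61 ± 0.46), Psmd9 (-0.40 ± 0.30) and Psma5 (-0.25 ± 0.26), each with an edgeR adjusted p of 1, and Psmd4 was at 0.19 without vector adjacent 9. These comparisons share libraries with those of tumour and adjacent liver and are set beside them as values.

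Genes around the proteasome did not pass in the comparison of tumour with adjacent liver over both plasmids. The immunoproteasome subunits, which replace the proteolytic beta subunits under interferon, had log2 differences of 0.30 ± 0.28 (Psmb8), 0.37 ± 0.28 (Psmb9) and -0.28 ± 0.32 (Psmb10), with edgeR adjusted p of 0.569, 0.490 and 0.652, and Psmb10 ran from -0.70 without vector tumour 1 to -0.02 without vector tumour 9. Their summed level was 41.2 to 67.3 CPM in adjacent liver. In tumour it was 89.5 CPM in vector tumour 1 and 44.6 to 52.8 CPM in the other libraries. Nfe2l1 itself had -0.22 ± 0.23 (edgeR adjusted p = 0.621), and 0 of 5 genes of its processing and turnover passed, with a median of 0.37 (0.07 with Nfe2l1 among them). Of the other lists, 0 of 6 assembly factors and inhibitors passed (median 0.01), 0 of 6 other proteasome-bound genes (median -0.28, all 6 below 0), 0 of 6 ubiquitin and E1 genes (median 0.00) and 0 of 12 genes of p97, its cofactors and shuttles (median -0.27). Over all tested genes 4.64% passed.

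Markers of cell types moved beside these differences. The summed level of 9 hepatocyte markers was 40984 to 113468 CPM in adjacent liver and 89026 to 209669 CPM in tumour, while the median log2 difference of the 9 was 0.01: 1 rose, and 4 were below 0, down to -1.26, without passing. The 7 macrophage and Kupffer cell markers summed to 194 to 514 CPM in adjacent liver and 92.6 to 220 CPM in tumour, and 2 of 7 fell. The 4 cycling-cell genes summed to 5.57 to 16.6 CPM and 15.9 to 65.8 CPM, with 0 of 4 passing, and the 5 bile duct markers to 41.6 to 56.8 CPM and 103 to 614 CPM, with 1 of 5 rising. The bile duct value of 614 CPM was that of mA3 tumour 1, and the other tumours were at 103 to 212 CPM. Of the markers of T and NK, B and plasma, neutrophil, endothelial, and stellate cells and fibroblasts, none passed. No marker was at 0 in all 8 libraries, and the part of cell composition in the proteasome differences was not tested.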

How the data were processed

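Total RNA of 8 liver samples had been sequenced as standard Illumina libraries, per the labels' protocols. Per the file headers, the authors' table gives a read count and an FPKM value for each gene. The deposited counts are whole numbers, and the deposited FPKM equalled count per library total and 1 fixed length per gene in 7555 well-covered genes (within 0.0009%). The aligner, counter and strand setting were not given in the sources used here. The submitters' processing notes name mm8 and Agilent Feature Extraction 10.7, a microarray program, whereas the positions matched GENCODE vM21 (GRCm38) within 1 bp for 81.6% of 34267 identifiers. Promoter windows came from RefSeq.

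Counts were analysed with edgeR 4.0.16 (R 4.3.3): filterByExpr by group, TMM factors, 1 coefficient for each of the 4 groups of plasmid and tissue, leaving 4 residual degrees of freedom, and the common biological coefficient of variation came to 39.1%. P-values were adjusted by Benjamini-Hochberg over 15009 genes, and 6 comparisons were made. SEs were derived from the F statistic. Counts of 14690 genes were simulated for tumour against adjacent liver over both plasmids, at these depths and 2 libraries a group. There, 13 of 100 changes of 2-fold and 86 of 100 of 4-fold were recovered, with 8 false calls. The changed genes were drawn from the better-covered ones and the libraries as unpaired. No change below 2-fold was simulated, so the recovery of differences as small as the member median of -0.43 log2 units is not known.

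Tumour and adjacent libraries with the same plasmid and number were taken to come from the same mouse, which rests on the numbers in the labels. Their deviations from group means correlated at 0.107 (vector) and 0.175 (mA3) across genes. The model did not use this pairing, and blocking on the mouse was tried as an alternative, as were DESeq2 1.42.0, limma 3.58.1 (voom, and log2(FPKM + 1)), other scalings, no filter, each library left out and vector mouse 9 left out. Total-count and upper-quartile scaling and the look at GC content were chosen after seeing the data.

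The members and lists were chosen with earlier results of these data known. Library values are given for members that passed, for the 2 with the smallest p among the alpha, beta, ATPase, non-ATPase and activator genes each, and for Psmb5, Psmb6, Psmb7, Psmd14, Psmd4, Psmd10, Psme3, Psme4, Psma8, Psmb11 and Psmc3ip, and non-member values for Psmb8, Psmb9, Psmb10, Nfe2l1 and Apobec3. For the 5 genes of Nfe2l1 processing and turnover, only the number that passed and the median log2 difference are given, and no values of single genes. That choice was made after their values were seen. Members named by smallest p in the other 5 comparisons, and Psmd1, Psma4 and the other members given with values, were chosen after their values were seen.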

Additional observations from a re-analysis of the deposited data

Results flagged for a closer look

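In 80 groups of 4 libraries (40 members in tumour and in adjacent liver), 7 libraries stood far from the other 3, where chance flags about 1 in 20 groups and the members share the same libraries. In 6 of the 7, vector tumour 1 was high among the tumours. Psma4 was at 150.0 CPM there against 70.6 to 83.8 CPM in the other tumours, and Psmb6 at 132 CPM against 62.4 to 71.5 CPM. Psmb1 was at 126 CPM against 94.9 to 97.4 CPM, and Psmb4 at 139 CPM against 105 to 109 CPM. Psmc5 was at 69.1 CPM against 43.0 to 44.8 CPM, and Psme2 at 83.6 CPM against 39.1 to 42.6 CPM. In the remaining group Psme1 was at 104.9 CPM in mA3 adjacent 1 against 82.9 to 86.5 CPM in the other adjacent libraries.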

How the results depend on the processing

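Without the filter on low counts, 5 members passed in tumour against adjacent liver over both plasmids (10.5% of all genes), 2 in vector mice (2.9%) and 1 in mA3 against vector tumours (4.66%), whose median became 0.0054. DESeq2 passed 8 over both plasmids (12.9% of all genes), 1 in vector mice (1.68%) and 1 in mA3 mice (10.7%). With the mouse as a replicate block 0 passed over both plasmids by edgeR (14 at an unadjusted p under 0.05, against 21.8% of all genes), and the block changed no other count of calls; no paired analysis was possible between plasmids because they were given to different mice. The member medians for vector mice, mA3 against vector tumours, the adjacent comparison and the interaction were -0.38, 0.0068, 0.0054 and 0.11 under total-count scaling, and -0.37, 0.0136, 0.0245 and 0.0284 with limma on log2(FPKM + 1), which gave -0.41 for mA3 mice. Under upper-quartile scaling they were -0.38 for vector mice, -0.0595 for the adjacent comparison and 0.0754 for the interaction. Total-count and upper-quartile scaling moved the median of all genes by up to 0.12. Without both libraries of vector mouse 9, Psma8, Psmb7 and Psmd1 passed over both plasmids by edgeR (5.98% of all genes) while Psma5 (adjusted p = 0.0592) and Psma1 (0.0529) did not, 1 member passed in mA3 mice (Psma5; 14% of all genes) and 2 between tumours (Psmb3 and Psmd1; 11.1%); an arm of 1 library is assumed to vary like the other groups. Leaving out each library in turn left 1 library in a group, so medians and not numbers of calls are given here. What became of the calls of Psma1 and Psma5 is given with those genes above. In 7 of these 8 fits Psme2b also passed the filter and entered the medians. Medians then ran from -0.55 to -0.40 over both plasmids, -0.63 to -0.45 in vector mice, -0.50 to -0.33 in mA3 mice, -0.0667 to 0.12 between tumours, -0.21 to -0.0181 between adjacent livers and 0.0942 to 0.25 for the interaction. Signs turned for Psmd8 (-0.37 without vector mouse 9; -0.24 to 0.27 leaving out libraries), Psmd10 (0.0128 with limma on log2(FPKM + 1); -0.25 to 0.16 leaving out libraries), Psmd4 (0.11 over both plasmids and 0.19 between adjacent livers without vector mouse 9; -0.65 to 0.0100 and -1.13 to 0.19 leaving out libraries) and Apobec3 between tumours (-0.23 to 0.73, below 0 without vector tumour 1 or mA3 tumour 2). The cause was not tested.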
